A study of Homo sapiens with 12 samples.

Results

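DUSP4, DUSP5, DUSP6 and SPRY4 are genes whose products switch off signalling through the kinase ERK, and they were followed through 12 Affymetrix arrays of HepG2 cells. These 4 genes were picked by name, with results of these arrays already known, out of 14884 genes with a named probe set, and all 4 were measured. Their levels and changes are therefore given as a description, with no p-value, in every comparison. The arrays did not show them as 1 group that moves together: DUSP6 and SPRY4 were low after loss of both forms of β-catenin, DUSP5 was high after loss of either form alone on 1 of its 2 probe sets, and DUSP4 stayed in the lower part of the intensity range on every array.

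HepG2 is an established line from a human liver tumour, in which 1 allele of the β-catenin gene carries a deletion, so that a truncated, stable protein is made beside the full-length one. All groups carry that allele. Cells were sampled at 120 h with siCtrl (a control small interfering RNA), sißCat-WT (against the full-length form), sißCat-mut (against the truncated form) or sißCat-both (against both forms), with 3 arrays a group. The labels name 1 RNA for each target and do not say that sißCat-both is a mixture of the others. They also do not say that the triplicates were separate cultures, so each p-value reflects the scatter of these arrays alone, which may be technical. The targeted gene was not analysed here, and the knockdown therefore rests on the labels.

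ERK is the last kinase of a chain that runs from growth factor receptors through RAS, RAF and MEK. DUSP4, DUSP5 and DUSP6 belong to the MAP kinase phosphatases, which remove the activating phosphates from MAP kinases: DUSP4 and DUSP5 act in the nucleus, and DUSP6 acts in the cytoplasm with a strong preference for ERK. SPRY4 is a Sprouty protein, which dampens the signal between the receptor and RAF. Their genes are classically induced by ERK itself, which makes them a feedback and a common readout of pathway output. In liver cells the pathway carries signals of EGF, HGF and FGF family factors.

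The values are log2 intensities. The median over all probe sets lay between 4.71 and 4.78 on the 12 arrays, and the lower quartile between 3.45 and 3.5. Levels near or below that median lie close to the floor of the array, where changes are compressed. Replicate arrays correlated at 0.994 to 0.997 across genes, and no arrays held identical values. The hepatocyte markers ALB, AFP, APOA1, TTR and others stood above the array median on every array in 10 of 10 measured cases (9.24 to 13.56), and the fibroblast markers LUM and DCN in 0 of 2 (2.86 to 3.48). Of 4 endothelial markers 1, ESAM, was above it, as were 3 of 3 measured immune markers (LYZ, CD68 and CD14) and 4 of 4 of bile duct. The mean level of the hepatocyte list was 12.29 to 12.34 on the siCtrl arrays, 12.08 to 12.17 after sißCat-WT, 12.80 to 12.86 after sißCat-mut and 12.75 to 12.78 after sißCat-both. Of its 10 genes 3 fell after sißCat-WT and 0 rose, 8 rose and 0 fell after sißCat-mut, and 9 rose and 1 fell after sißCat-both (limma, adjusted p below 0.05). The shares of all genes that rose and fell were 5.2% and 4.97% after sißCat-WT. They were 12% and 13.6% after sißCat-mut, and 15.5% and 18.1% after sißCat-both. The bile duct list lay at 8.62 to 8.67, 8.59 to 8.77, 8.38 to 8.52 and 8.17 to 8.26 in the same order of groups, and the immune list between 9.23 and 9.57 on all arrays. ESAM had group means of 7.06, 8.69, 7.35 and 5.81, while the other endothelial genes, PECAM1, VWF and KDR, had group means between 3.51 and 4.76. The part of these shifts in the results was not tested. Every array is labelled HepG2, so the lists are read as levels in 1 line. In bulk RNA, fewer cells in a given state and less RNA per cell cannot be told apart.

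The promoters shown are those of DUSP6 and SPRY4, and no expression value entered that choice. Both come from the RefSeq promoter table (GRCh38.p14), which gives 250 bases before to 50 bases after the start site. The promoters of DUSP4 and DUSP5 were left out of the search, so whether they hold these motifs is not known here. DUSP6 lies at chr12:89352452-89352751 and SPRY4 at chr5:142324198-142324497, both on the minus strand, printed 5′ to 3′ along the gene. Capitals mark matches to the motifs searched.
DUSP6: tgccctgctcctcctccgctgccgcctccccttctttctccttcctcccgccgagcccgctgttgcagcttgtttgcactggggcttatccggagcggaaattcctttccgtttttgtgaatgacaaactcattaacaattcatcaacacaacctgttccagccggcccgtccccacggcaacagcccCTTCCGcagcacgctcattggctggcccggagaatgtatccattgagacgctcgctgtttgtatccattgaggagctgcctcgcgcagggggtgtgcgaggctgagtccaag
SPRY4: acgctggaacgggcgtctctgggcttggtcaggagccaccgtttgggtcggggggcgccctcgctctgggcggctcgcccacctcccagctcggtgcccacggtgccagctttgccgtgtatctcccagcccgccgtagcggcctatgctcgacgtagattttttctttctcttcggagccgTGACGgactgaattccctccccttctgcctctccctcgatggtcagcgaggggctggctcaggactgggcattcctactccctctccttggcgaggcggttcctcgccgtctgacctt
The motifs, on both strands, were the TCF and LEF core CTTTGA, the ETS core CGGAAG, the AP-1 element TGANTCA, the short cyclic AMP element TGACG, and the E-box CACGTG. DUSP6 held 1 ETS core, on the opposite strand from 62 bases before the start, and SPRY4 held 1 TGACG, from 68 bases before the start. Among all 35116 promoters of this length in the table, 19.5% held the ETS core and 24.6% held TGACG. The TCF and LEF core, found in 12.9% of all promoters, the AP-1 element, in 7.71%, and the E-box, in 7.26%, had no match in these windows. A match is a description of the letters, and no match says only that they are not in this window.

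DUSP6 was at 8.90, 8.81 and 9.02 on the siCtrl arrays and at 8.77, 8.75 and 9.13 after sißCat-WT, so these groups overlapped. It was at 9.37, 9.52 and 9.51 after sißCat-mut, above every other array of the series. After sißCat-both it was at 7.55, 7.49 and 8.08, below every other array. Against siCtrl the log2 change was -0.03 ± 0.14 after sißCat-WT (SE of the fit, n = 3 arrays per group, 95% interval -0.33 to 0.28). It was 0.56 ± 0.14 after sißCat-mut, or 1.47-fold higher, and -1.21 ± 0.14 after sißCat-both, or 2.31-fold lower. The order of the means was sißCat-both (7.70 ± 0.32, SD), then sißCat-WT (8.88 ± 0.21) and siCtrl (8.91 ± 0.11), which do not differ beyond their spread, then sißCat-mut (9.47 ± 0.08).

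SPRY4 was at 8.71, 8.80 and 8.88 on the siCtrl arrays and at 8.62, 8.81 and 8.82 after sißCat-mut, and these groups overlapped. It was at 9.05, 9.11 and 9.60 after sißCat-WT, above both of them. It was at 7.57, 6.72 and 7.05 after sißCat-both, the lowest 3 arrays of the series and the widest spread of any group for this gene. The log2 change against siCtrl was 0.46 ± 0.18 after sißCat-WT (1.37-fold higher), -0.05 ± 0.18 after sißCat-mut (95% interval -0.44 to 0.34) and -1.68 ± 0.18 after sißCat-both (3.21-fold lower). The order of the means was sißCat-both (7.12 ± 0.43, SD), sißCat-mut (8.75 ± 0.11) and siCtrl (8.80 ± 0.08), the last pair not differing beyond their spread, and sißCat-WT (9.26 ± 0.30). SPRY4 thus shared with DUSP6 its low level after sißCat-both, and was high after a different single knockdown.

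DUSP5 followed another pattern. Its level was 4.47, 4.90 and 4.69 on the siCtrl arrays and 4.43, 4.54 and 4.40 after sißCat-both, at or near the array median, and these groups overlapped. It was 5.48, 6.22 and 6.46 after sißCat-WT and 5.51, 5.38 and 5.30 after sißCat-mut, above siCtrl on every array in both groups. Against siCtrl the log2 change was 1.37 ± 0.19 after sißCat-WT (2.58-fold higher), 0.71 ± 0.19 after sißCat-mut (1.64-fold higher) and -0.23 ± 0.19 after sißCat-both (95% interval -0.63 to 0.18). The order was sißCat-both (4.46 ± 0.08, SD), siCtrl (4.69 ± 0.21), sißCat-mut (5.40 ± 0.11) and sißCat-WT (6.05 ± 0.51); the last pair overlapped, as did the first. Because siCtrl lies near the array floor, the size of the increases is uncertain. A second probe set annotated to DUSP5 had lower levels (3.80 to 4.28 over the 12 arrays), with changes of 0.08, 0.07 and -0.16 after sißCat-WT, sißCat-mut and sißCat-both.

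DUSP4 was at 4.15, 4.19 and 3.94 with siCtrl, 4.03, 4.18 and 4.42 after sißCat-WT, 4.11, 4.10 and 4.05 after sißCat-mut, and 4.01, 3.98 and 3.89 after sißCat-both. All 12 values lie below the median of all probe sets on the same array, so this probe set gave little signal to measure a change in. The changes against siCtrl were 0.12 ± 0.10, -0.01 ± 0.10 and -0.13 ± 0.10, and all 3 knockdown groups overlapped siCtrl. DUSP4 did not rise above 4.42 on any array, and neither did the second probe set of DUSP5, which reached 4.28.

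**Figure D1:**
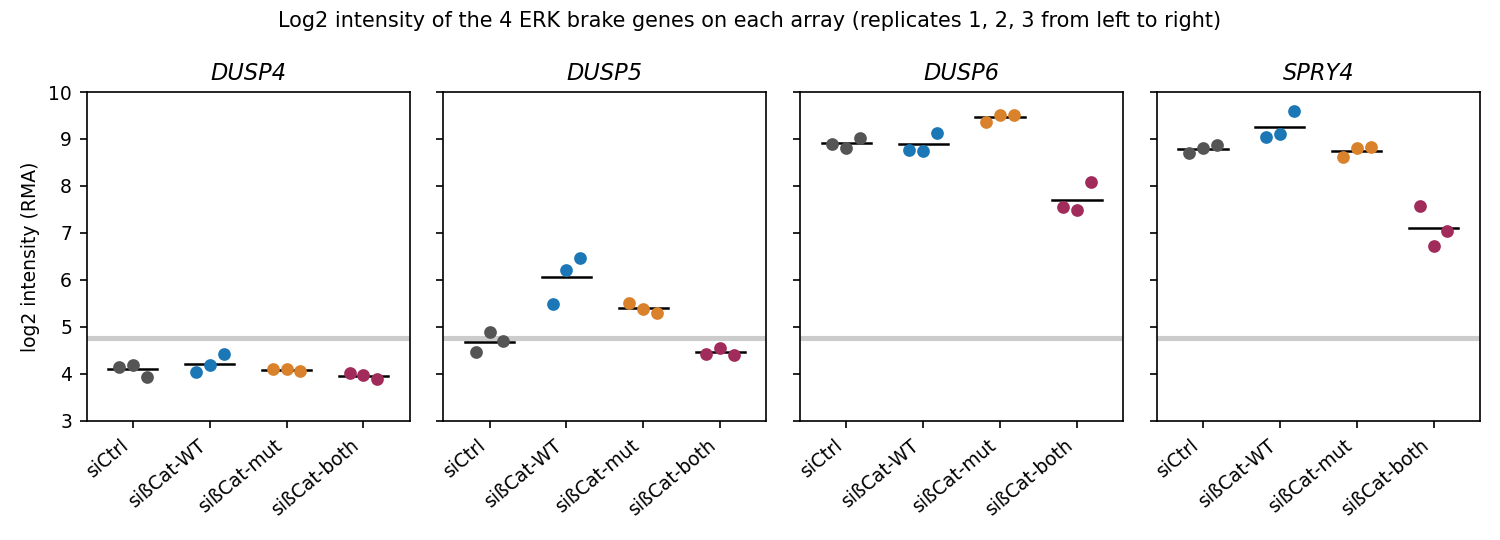
Log2 intensity (vertical axis) of the 4 genes on each of the 12 arrays by group (horizontal axis); points are arrays, black lines are group means and the grey band spans the medians of all probe sets (4.71 to 4.78). DUSP6 and SPRY4 are lowest after sißCat-both, DUSP5 is highest after sißCat-WT, and DUSP4 lies below the band on every array.

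Counted by arrays, 2 of the 4 genes, DUSP5 and SPRY4, were higher after sißCat-WT than on every siCtrl array, beside 15.5% of all genes. After sißCat-mut 2 of the 4, DUSP5 and DUSP6, were higher without overlap (20% of all genes). After sißCat-both 2 of the 4, DUSP6 and SPRY4, were lower without overlap (23.1% of all genes). DUSP5 is counted on the brighter of its 2 probe sets, and on the other the sißCat-WT and sißCat-mut groups overlapped siCtrl. Since the genes were chosen on these arrays, nothing is read from the shares. The 3 comparisons share the siCtrl arrays. The highest of the 3 sißCat-WT values was on replicate 3 for all 4 genes, by 0.21 to 0.40 above the group mean. Without that array the change after sißCat-WT was 0.01 for DUSP4, 1.16 for DUSP5, -0.15 for DUSP6 and 0.29 for SPRY4, which for SPRY4 is lower by more than 1.5 times.

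The siRNAs were also compared with each other. All 4 genes were lower on the sißCat-both arrays than on any sißCat-WT array, by 2.14 ± 0.18 for SPRY4, 1.59 ± 0.19 for DUSP5, 1.18 ± 0.14 for DUSP6 and 0.25 ± 0.10 for DUSP4, beside 24.1% of all genes lower without overlap. All 4 were also lower than on any sißCat-mut array, with differences of -1.76 ± 0.14 for DUSP6, -1.63 ± 0.18 for SPRY4, -0.94 ± 0.19 for DUSP5 and -0.13 ± 0.10 for DUSP4 (17.4% of all genes). DUSP4 lay below the array median on every array, and DUSP5 is given here on the brighter of its 2 probe sets. On the other probe set of DUSP5, sißCat-both (3.80 to 4.01) overlapped sißCat-WT (3.95 to 4.28) and lay below sißCat-mut (4.07 to 4.20). Between the single knockdowns, sißCat-mut minus sißCat-WT, DUSP6 was higher by 0.58 ± 0.14 without overlap (20.2% of all genes higher) and SPRY4 was lower by 0.51 ± 0.18 without overlap (23% lower). DUSP5 differed by -0.65 ± 0.19 with overlapping groups.

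The change after sißCat-both was set beside the sum of the changes after the single siRNAs. For DUSP5 the sum was 2.08 and the observed change -0.23, a departure of -2.31 ± 0.27 (SE) on the brighter of its 2 probe sets, with siCtrl near the array floor. The departure was -1.31 with the mean of both probe sets and -0.32 with the other one. For SPRY4 the sum was 0.41 and the observed change -1.68, a departure of -2.09 ± 0.26. For DUSP6 the sum was 0.53 and the observed change -1.21, a departure of -1.74 ± 0.20. For DUSP4 the departure was -0.25 ± 0.14. The sums of DUSP5, SPRY4 and DUSP6 were above 0 and their observed changes below it. In order of size these departures were the lowest but 10, 16 and 32 among 14884 genes, a description of genes chosen on the same arrays. Additivity on the log2 scale assumes that each siRNA removes the same form in the same amount when given for both, which was not measured here.

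**Figure D2:**
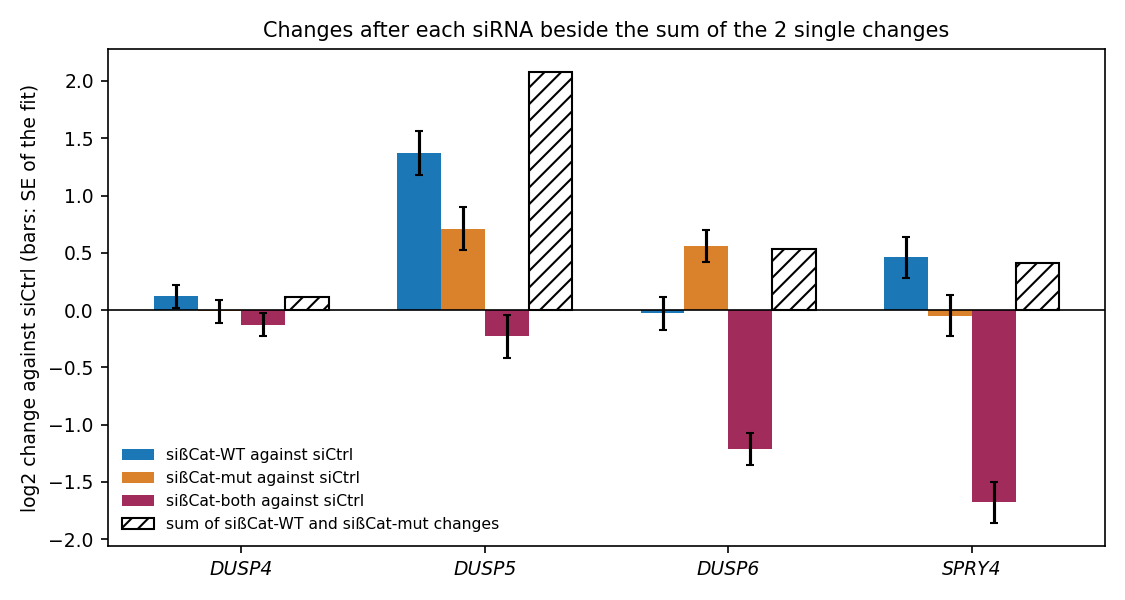
Log2 change against siCtrl (vertical axis) of the 4 genes after each siRNA (coloured bars, error bars are the SE of the fit, n = 3 arrays per group), with the sum of the sißCat-WT and sißCat-mut changes (hatched). For DUSP5, DUSP6 and SPRY4 the hatched bar is above 0 (2.08, 0.53 and 0.41) and the sißCat-both bar below it (-0.23, -1.21 and -1.68).

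The rest of the phosphatase family was tested with limma across all genes, with Benjamini-Hochberg adjusted p-values; calls needed an adjusted p below 0.05. The lists used here were written from general knowledge with results of these data known. Of the 7 MAP kinase phosphatase genes besides DUSP4, DUSP5 and DUSP6, 4 rose and 1 fell after sißCat-both (33.6% of all genes were called), with a median log2 change of 0.40 beside -0.00617 over all genes. DUSP7, a cytoplasmic ERK phosphatase closely related to DUSP6, fell 2.81-fold (log2 change -1.49 ± 0.10, limma adjusted p = 1.64e-07), from 7.82 to 7.85 on the siCtrl arrays to 6.17 to 6.64. DUSP9, the other cytoplasmic ERK phosphatase, rose 1.37-fold (0.45 ± 0.11, limma adjusted p = 0.00667). DUSP10, which acts on p38 and JNK, rose 5.74-fold (2.52 ± 0.13, limma adjusted p = 1.84e-08), and DUSP1, a nuclear phosphatase of all these kinases induced by stress, rose 2.75-fold (1.46 ± 0.14, limma adjusted p = 3.14e-06). DUSP8, a JNK and p38 phosphatase, rose by 0.40, and DUSP16 and DUSP2 had changes of 0.13 and -0.06 that did not pass the test.

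After the single siRNAs DUSP10 and DUSP1 rose as well, by 1.07 and 0.95 after sißCat-WT and by 1.24 and 0.59 after sißCat-mut. For these genes the departure from the sum was 0.21 ± 0.19 and -0.08 ± 0.20 and did not pass the test (limma adjusted p = 0.546 and 0.85), with additivity called for 16.4% of all genes. DUSP7 departed by -1.06 ± 0.15 (limma adjusted p = 0.000289), with changes of -0.07 after sißCat-WT, which did not pass, and -0.36 after sißCat-mut. That last call was lost without siCtrl replicate 1 (adjusted p = 0.0523) and without sißCat-mut replicate 1 (0.054). Of these 7 genes 2 rose and 1 fell after sißCat-WT (10.2% of all genes called) and 4 rose and 2 fell after sißCat-mut (25.6% called). The number of genes called after sißCat-WT, 1513, was 950 without siCtrl replicate 2, 917 without sißCat-WT replicate 2 and 957 without sißCat-WT replicate 3.

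Beside SPRY4, the Sprouty genes SPRY2 and SPRY3 were measured; SPRY1 and the Spred genes were not analysed here. SPRY2 fell after sißCat-both, 1.67-fold (-0.74 ± 0.10, limma adjusted p = 4.05e-05), and after sißCat-mut by 0.39. Its departure from the sum was -0.07 ± 0.14 (limma adjusted p = 0.806), against -2.09 for SPRY4; the difference between these genes was not tested. SPRY3 had changes of 0.00, 0.22 and 0.12 that did not pass.

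**Figure D3:**
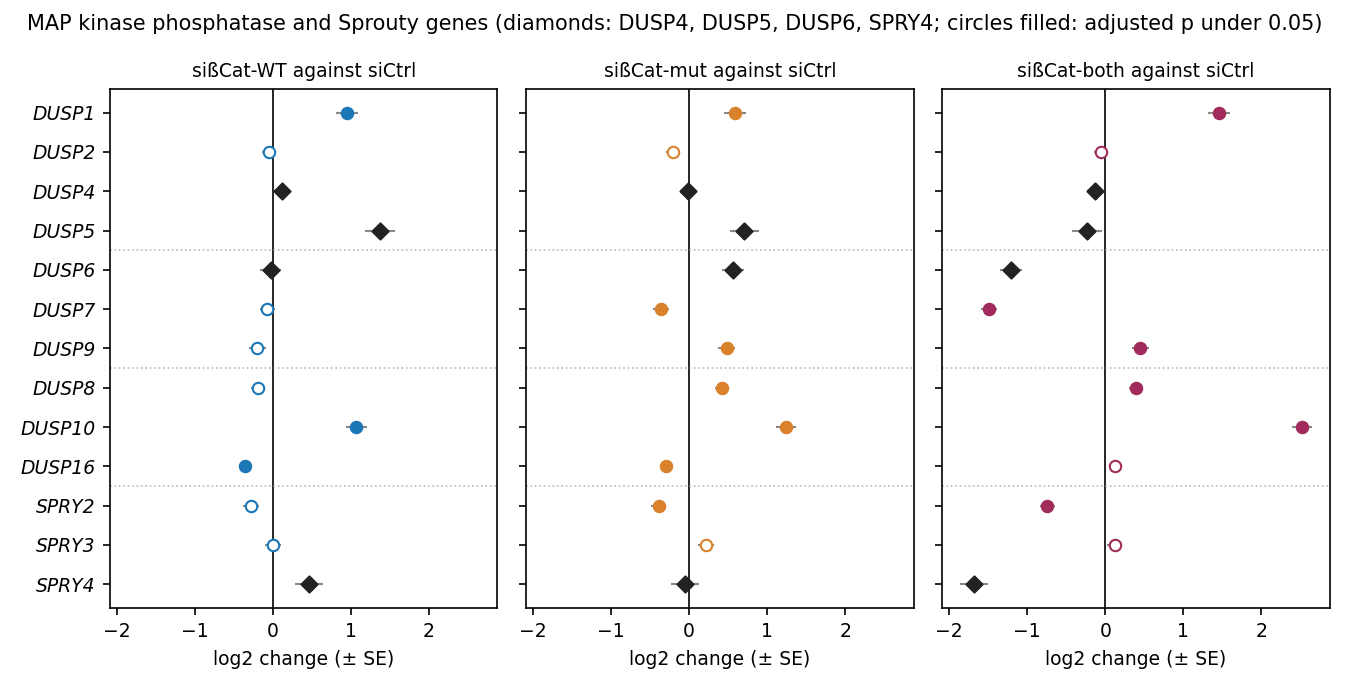
Log2 change against siCtrl (horizontal axis, ± SE of the fit) after each siRNA for the MAP kinase phosphatases and Sprouty genes (vertical axis), grouped by dotted lines into nuclear, cytoplasmic ERK, and JNK and p38 phosphatases and Sprouty genes. Diamonds are DUSP4, DUSP5, DUSP6 and SPRY4, shown with no test; filled circles passed an adjusted p under 0.05. After sißCat-both DUSP7 lies beside DUSP6 on the left, and DUSP1 and DUSP10 lie at 1.46 and 2.52.

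Of 12 measured genes for other brakes of receptors and RAS, 3 rose and 1 fell after sißCat-both, with a median of 0.02. This is close to the 33.6% of all genes called, so the count is no result about the list. ERRFI1, an inhibitor of the EGF receptor, fell 2.02-fold (-1.01 ± 0.10, limma adjusted p = 3.74e-06), and the RAS GTPase activator RASAL2 rose 2.1-fold (1.07 ± 0.12, limma adjusted p = 1.39e-05). ERRFI1 had changes of 0.09 and -0.20 after sißCat-WT and sißCat-mut that did not pass, and departed from the sum by -0.90 ± 0.14 (limma adjusted p = 0.000769). LRIG1, which promotes degradation of receptors, fell after sißCat-WT by 0.59 and had a change of 0.16 after sißCat-both that did not pass; its departure was 1 ± 0.13 (limma adjusted p = 0.000228).

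Upstream, of 14 measured receptor genes, the co-receptor KLB among them, 6 rose and 5 fell after sißCat-both. Beside this and the following counts, 15.5% of all genes rose and 18.1% fell. EGFR rose 2.92-fold (1.55 ± 0.11, limma adjusted p = 1.56e-07), also by 0.54 after sißCat-WT and 1.03 after sißCat-mut. FGFR1 and FGFR4 fell 2.34-fold and 1.68-fold, while KLB, with which FGFR4 binds FGF19, rose 2.01-fold (limma adjusted p = 1.39e-07, 6.64e-06 and 7.33e-07). The receptor gene AXL had group means of 6.74 with siCtrl, 8.61 after sißCat-WT, 7.21 after sißCat-mut and 5.82 after sißCat-both. Of 17 growth factor genes 1 rose and 3 fell after sißCat-both, and 1 rose and 1 fell without siCtrl replicate 2 or without sißCat-both replicate 3, a smaller share than the 33.6% called over all genes. EGF, BTC, NRG1, FGF1, FGF9, FGF21, IGF1 and HGF had group means of 3.27 to 4.44, below the array median, where changes are compressed. EREG, a ligand of the EGF receptor, rose after sißCat-WT by 0.81 ± 0.15 (limma adjusted p = 0.004), from 4.94, near the array floor, to 5.75. Among 12 adaptors and RAS activators 5 rose and 1 fell after sißCat-both. IRS1, which links the insulin receptors to their pathway, rose by 1.30, and SHC1, which links receptors to RAS activation, fell by 0.50 (limma adjusted p = 2.83e-07 and 0.000929).

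Of the core chain 9 of 18 listed genes were measured, and 2 rose and 3 fell after sißCat-both, beside 15.5% and 18.1% of all genes. The kinase genes moved little: MAP2K1 (a MEK) had a log2 change of -0.41 and MAPK3 (an ERK) of 0.32, and both passed (limma adjusted p = 0.00116 and 0.0087). RRAS, a RAS relative, rose by 1.01 ± 0.14 after sißCat-WT and 0.82 ± 0.14 after sißCat-mut (limma adjusted p = 0.00044 and 0.000616). DUSP5 was also high after these siRNAs, on the brighter of its probe sets only. After sißCat-both RRAS fell by 0.60 ± 0.14 (limma adjusted p = 0.00398), while DUSP5 overlapped siCtrl. The departure of RRAS from the sum was -2.43 ± 0.20 (limma adjusted p = 5.03e-06).

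Among genes that serve as readouts of ERK output, 6 were measured besides DUSP4, DUSP6 and SPRY4. Of these 5 fell and 0 rose after sißCat-both, with a median of -0.81, beside 18.1% of all genes that fell and 15.5% that rose. These were the ETS factors ETV4 (4.04-fold lower, -2.01 ± 0.15, limma adjusted p = 3.11e-07) and ETV5 (1.85-fold lower, limma adjusted p = 2.14e-06), the ephrin receptor EPHA2 (2.27-fold lower, limma adjusted p = 2.84e-06), the cyclin CCND1 (1.58-fold lower, limma adjusted p = 1.11e-05) and SPRY2. EPHA4, at 4.39 with siCtrl and 4.51 after sißCat-both, did not pass. After sißCat-WT 1 of the 6 rose, CCND1, and 0 fell, beside 5.2% and 4.97% of all genes. After sißCat-mut 3 fell, CCND1 by 0.84, ETV4 by 0.45 and SPRY2, and 0 rose, beside 13.6% and 12% of all genes. The ETV4 call after sißCat-mut was lost without any 1 of the 6 arrays compared (adjusted p = 0.0762 to 0.118). Departures from the sum were called for ETV4 (-1.25 ± 0.21), ETV5 (-0.56 ± 0.12) and EPHA2 (-0.73 ± 0.16), and the departures of CCND1, SPRY2 and EPHA4 did not pass.

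ETV4 had changes of -0.32, -0.45 and -2.01 after sißCat-WT, sißCat-mut and sißCat-both, beside -0.03, 0.56 and -1.21 for DUSP6. After sißCat-mut DUSP6 was thus above siCtrl and ETV4 below it, and after sißCat-WT ETV4 lay below siCtrl without overlap while DUSP6 overlapped it. The differences between these genes were not tested. ETV5 had changes of -0.17, -0.16 and -0.89 after the 3 siRNAs, beside 0.46, -0.05 and -1.68 for SPRY4.

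Immediate early genes, which are transcribed within minutes of stimulation, were mixed. Of 17 measured, 7 rose and 0 fell after sißCat-WT (median 0.16), 4 rose and 3 fell after sißCat-mut (median 0.01), and 2 rose and 8 fell after sißCat-both (median -0.27). Over all genes 5.2% rose and 4.97% fell after sißCat-WT, 12% and 13.6% after sißCat-mut, and 15.5% and 18.1% after sißCat-both. EGR1 had changes of -0.41, 1.71 and -0.97, the last of which did not pass without siCtrl replicate 1 (-0.67, adjusted p = 0.0795), sißCat-both replicate 2 (0.0525) or sißCat-both replicate 3 (0.0598). Like DUSP6, EGR1 was high after sißCat-mut. IER3 rose by 0.69 after sißCat-WT and fell by 2.14 after sißCat-both, as SPRY4 was high and low in the same groups, and JUN rose in all 3 (0.66, 0.46 and 0.71). Others followed neither DUSP6 nor SPRY4. MYC had group means of 9.34 with siCtrl, 9.35 after sißCat-WT, 6.90 after sißCat-mut and 6.77 after sißCat-both. FOSL1 had means of 7.61, 8.58, 6.70 and 6.49 in the same order. After sißCat-mut the count for the list was 2 rising and 2 falling without siCtrl replicate 2.

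**Figure D4:**
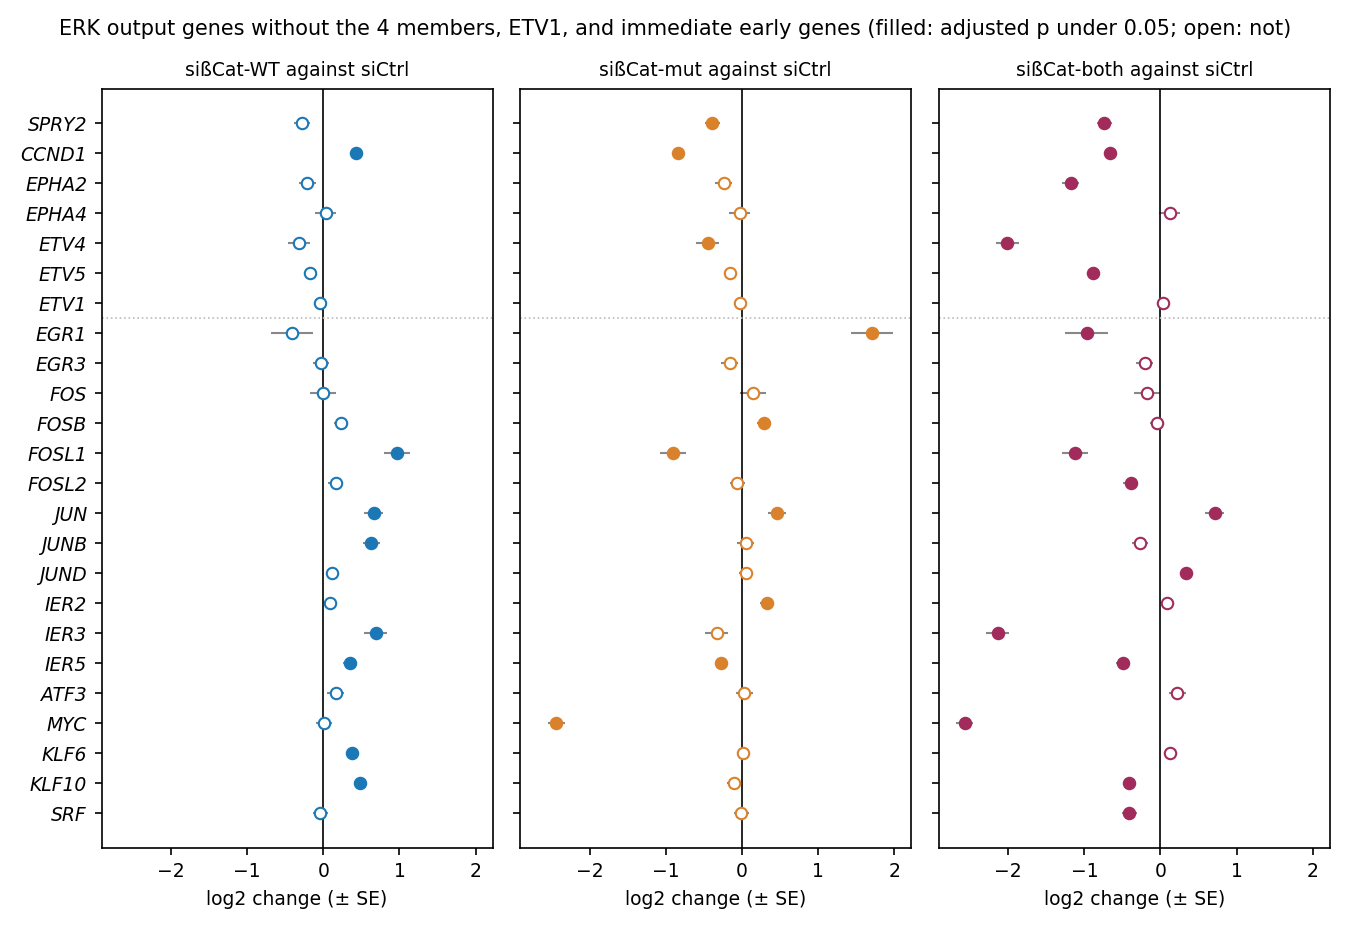
Log2 change against siCtrl (horizontal axis, ± SE of the fit) after each siRNA for ERK output genes other than DUSP4, DUSP6 and SPRY4, for ETV1, and below the dotted line for immediate early genes (vertical axis). Filled circles passed an adjusted p under 0.05. After sißCat-both 5 of the 6 output genes lie at the left of 0, and EGR1 lies at 1.71 after sißCat-mut and -0.97 after sißCat-both.

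Over all lists together, 112 pathway genes besides DUSP4, DUSP5, DUSP6 and SPRY4 were measured. After sißCat-WT 24 rose and 8 fell, after sißCat-mut 21 rose and 18 fell, and after sißCat-both 26 rose and 30 fell. The share called was 28.6%, 34.8% and 50%, beside 10.2%, 25.6% and 33.6% of all genes, and the lists were not chosen blind to these results. Departures from the sum were called above 0 for 10 and below 0 for 26 of the 112, beside 7.6% and 8.79% of all genes. The medians were 0.06, 0.01 and -0.03.

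**Figure D5:**
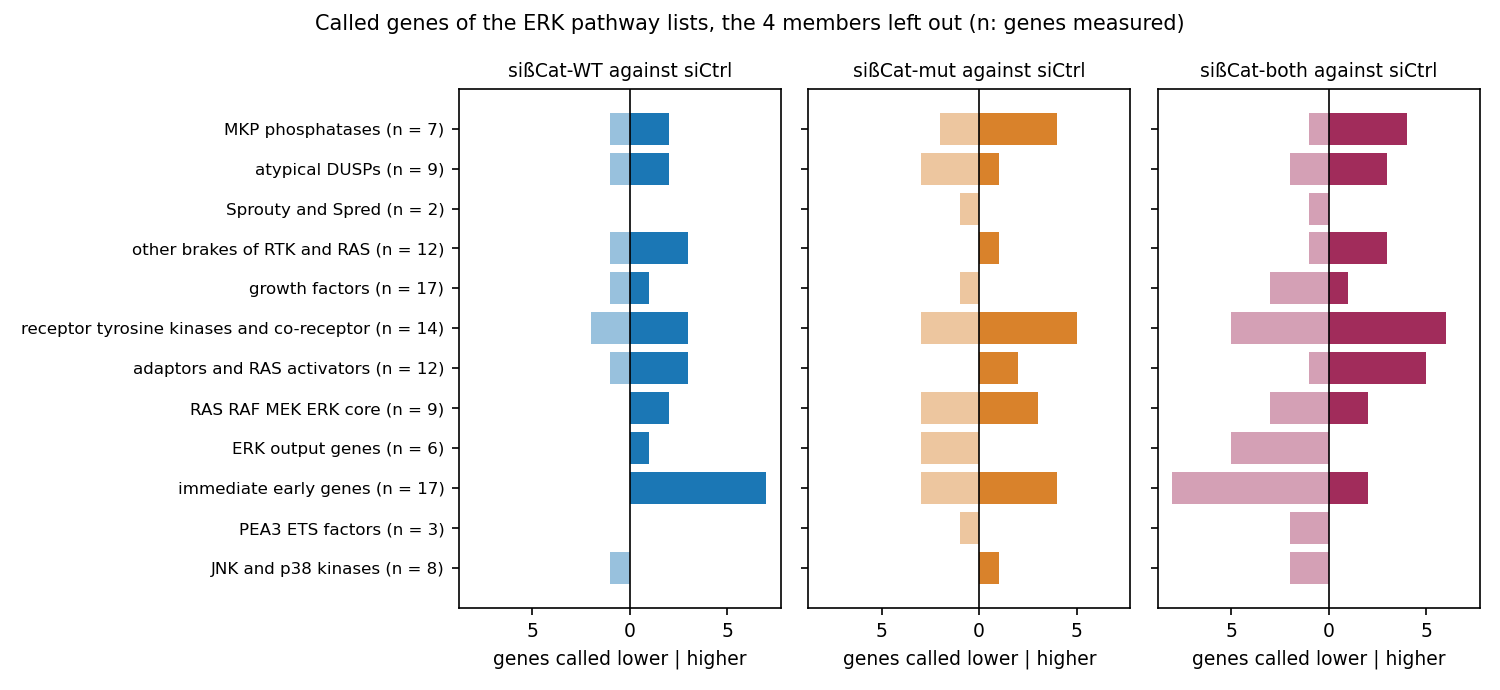
Number of genes called lower (left, pale) and higher (right, full colour) against siCtrl (horizontal axis) in each pathway list (vertical axis, n is the number measured), without DUSP4, DUSP5, DUSP6 and SPRY4; ETV4, ETV5, SPRY2 and EPHA2 stand in 2 lists. After sißCat-both the ERK output list has 5 genes lower and 0 higher, and the immediate early list 8 lower and 2 higher.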

How the data were processed

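The authors deposited log2 intensities for 53617 probe sets. The submitters' processing notes name RMA and Affymetrix Expression Console 1.1. RMA corrects background, equalises the arrays' distributions and summarises probes, which removes changes shared by most genes. The log2 scale was inferred from the values. The sources used here give neither the annotation build nor the probe set level. In the platform annotation 16098 probe sets had 1 gene symbol, 0 several, and 37519 were unnamed; for 779 genes the probe set with the highest mean was used, leaving 14884 genes.

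A limma model (limma 3.58.1, R 4.3.3) with a mean for each of the 4 groups was fitted to all 12 arrays, with 8 residual degrees of freedom, two-sided, adjusted by Benjamini-Hochberg within each of 7 comparisons. No dim genes were left out. The genes described and the lists were chosen with earlier results of these data known. Any list member could be named. Those named are examples and are not always the largest changes of their list. For each of the 4 genes, the 4 closest over the changes against siCtrl were named, among genes at or above the 40th percentile of mean level. The fit was tested on data simulated with normal noise for sißCat-WT against siCtrl. It recovered 70.1% of changes of 0.5 in log2, 98.5% of changes of 1 and 100% of changes of 2. Of 190 calls 11 were false. Alternatives were quantile normalization, median centring, a filter on dim genes, mean of probe sets, trended and robust priors, a fit of the compared groups alone, array weights, blocking on replicate number and leaving out each array. Replicate numbers were checked by the correlation of same-numbered arrays' deviations from their group means. All 3 were above 0.1 for sißCat-WT and sißCat-both only (0.115, 0.155 and 0.134). Single values as large occurred elsewhere, such as 0.121 and 0.189 for siCtrl and sißCat-WT on replicates 1 and 3. Differently numbered arrays were not compared, so the check cannot show whether the numbers pair the arrays. Motifs were counted in RefSeq promoters with Python 3.11.15, and figures drawn with matplotlib 3.10.9.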

Additional observations from a re-analysis of the deposited data

How the results depend on the processing

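For DUSP4, DUSP6 and SPRY4 every alternative run stayed within the replicate spread. DUSP5 depended on its probe set. With the mean of its probe sets its changes were 0.73 after sißCat-WT and 0.39 after sißCat-mut against siCtrl, -0.33 for sißCat-mut against sißCat-WT, -0.92 and -0.59 for sißCat-both against sißCat-WT and sißCat-mut, and -1.31 for additivity. With the other probe set, chosen after seeing the data, they were 0.08, 0.07, -0.01, -0.24, -0.23 and -0.32. Leaving out 1 array gave DUSP5 1.16 to 1.65 after sißCat-WT, -0.94 to -0.45 for sißCat-mut against sißCat-WT, -1.88 to -1.39 for sißCat-both against sißCat-WT and -2.59 to -2.1 for additivity, and gave 917 to 1379 genes called after sißCat-WT. Signs of the changes of DUSP4 and SPRY4 after sißCat-mut and of DUSP6 after sißCat-WT, all near 0, turned without single arrays. The filter on dim genes removed DUSP4 and DUSP5. With the replicate number as a block 5623 genes were called for sißCat-both against sißCat-WT, beside 5383, and DUSP6 differed by -1.18 ± 0.10. The block moved no count of calls by over 1.5 times. Of 242 calls of named pathway genes 208 held under every alternative, and 34 were lost under at least 1, with 0 reversed. Array weights were 0.635 to 0.707 for sißCat-both and 1.02 to 1.84 for siCtrl. Levels near the array median limit what DUSP4 and DUSP5 can show.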

Other observations

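The genes closest to each of the 4 over the 3 changes against siCtrl were found by the root mean square difference in log2, among 8436 or 8437 genes. MOSPD1 was nearest to DUSP5 (0.0846), with changes of 1.30, 0.82 and -0.16 after sißCat-WT, sißCat-mut and sißCat-both, followed by CSGALNACT2, the RAS relative RRAS and SV2A (0.299, 0.302 and 0.364). ZNF117 was nearest to DUSP6 (0.158; changes 0.14, 0.50 and -1), then SCAMP2, TPRG1L and MAB21L3. IFITM2 was nearest to SPRY4 (0.2; changes 0.27, -0.31 and -1.80), then MANSC1, WFS1 and JPT1. Within 0.25 lay 1 gene for DUSP5, 5 for DUSP6 and 3 for SPRY4, but 4034 for the flat profile of DUSP4, whose nearest were SYT2, CDK9, MST1R and GET1. Between the genes themselves the difference was 0.52 for DUSP6 and SPRY4, 0.99 for DUSP5 and DUSP6, and 1.08 for DUSP5 and SPRY4.

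Among 9 atypical dual-specificity phosphatases, which lack the docking domain of the MAP kinase phosphatases, 3 rose and 2 fell after sißCat-both. Beside this, 15.5% of all genes rose and 18.1% fell. DUSP22 fell 2.1-fold (-1.07 ± 0.09, limma adjusted p = 1.02e-06) and departed from the sum by -0.68 ± 0.13, and DUSP3 rose 1.46-fold (limma adjusted p = 5.07e-05). Of 8 measured JNK and p38 pathway kinases 2 fell and 0 rose after sißCat-both, the p38 genes MAPK12 by 0.46 and MAPK13 by 0.41. Over all genes 33.6% were called, so this count is no result about the list.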
